A study of Homo sapiens with 6 samples.

Results

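The genes described are 4 genes of the ID family (ID1, ID2, ID3 and ID4) and 6 SMAD genes (SMAD2, SMAD3, SMAD4, SMAD5, SMAD6 and SMAD7), taken by symbol from the 26255 genes of the deposited tables. The rule itself uses no measured value. RNA was sequenced from 22RV1, an established human cell line of castration-resistant prostate cancer (CRPC), after 24 h with the DMSO vehicle (3 samples) or with 10 nM bruceantin (BCT), a plant quassinoid known as an inhibitor of protein synthesis (3 samples). Both groups were the same line in medium with 10% serum, with no added allele or second agent, so a difference is that between these cultures of a single line. The labels do not say whether replicates came from separate cultures, so the p-values measure the spread between these samples, which may be technical. RNA was taken from whole cultures, in which fewer cells making a transcript and less of it per cell cannot be told apart.

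ID proteins are helix-loop-helix proteins without a DNA-binding region. They pair with E proteins such as the products of TCF3, TCF4 and TCF12, and so keep them off the E-box sites at which they activate genes of differentiation and cell cycle arrest. SMADs carry the signal of TGF-beta family receptors to the nucleus. SMAD2 and SMAD3 are phosphorylated by TGF-beta and activin receptors, while SMAD1, SMAD5 and SMAD9 are phosphorylated by BMP receptors. Both classes pair with SMAD4, and SMAD6 and SMAD7 are inhibitory SMADs that block the receptors and recruit ubiquitin ligases to them. The families are linked, since the ID genes and the inhibitory SMADs are textbook targets of SMAD complexes, and inhibitory SMADs thereby close a negative feedback loop. In the prostate, TGF-beta is known to restrain growth of the normal epithelium.

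The genes lie on several chromosomes (hg19, start and end as in the deposited tables with 1 added to the start). ID1 spans chr20:30193086-30194317 on the plus strand, ID2 chr2:8822113-8824583 on the plus strand, ID3 chr1:23884421-23886285 on the minus strand and ID4 chr6:19837601-19842431 on the plus strand. SMAD2 (chr18:45359466-45457517, minus), SMAD7 (chr18:46446223-46477081, minus) and SMAD4 (chr18:48556583-48611411, plus) share chromosome 18. SMAD6 (chr15:66994674-67074337, plus) and SMAD3 (chr15:67358195-67487533, plus) are neighbors on chromosome 15, and SMAD5 spans chr5:135465203-135518422 on the plus strand.

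A sequence that SMAD3 and SMAD4 are known to bind is the palindrome GTCTAGAC, which reads the same on both strands. It was searched for in the GRCh37 sequence from 2000 bases before to 200 bases after each deposited gene start. It was found in 243 of 18747 such windows (1.3%) and in 2 of the 10 windows of the ID and SMAD genes, those of SMAD6 and SMAD7. Both sites are shown, on the strand of the gene and with the palindrome in capitals, because SMAD6 and SMAD7 are also the genes whose values differed most in the lower direction below. The SMAD6 stretch is chr15:66994551-66994580 on the plus strand, upstream of the deposited start, and the SMAD7 stretch is chr18:46478577-46478606 on the minus strand, also upstream. GENCODE starts SMAD6 at 66994574, just past the palindrome and within the stretch shown.
SMAD6: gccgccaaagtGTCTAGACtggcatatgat
SMAD7: agcgacagggtGTCTAGACggccacgtgac
The SMAD6 palindrome starts at position -112 relative to the deposited gene start and the SMAD7 palindrome at position -1514. In the shorter promoter windows of RefSeq (GRCh38, 250 bases before to 50 after a start) the letters stood in 71 of 35116 windows (0.202%), and in 1 of the 17 windows that matched a member, at SMAD6. The length of the first window was chosen with the values known, and a match in sequence does not show binding.

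Deposited values were FPKM, that is, fragments divided by transcript length and by the mapped total of the sample. They hold no counts, so absolute depth is unknown and samples can be ranked on depth only against each other. Relative to DMSO replicate 1, depth read from the smallest steps of the values was 0.878 to 1 with DMSO and 1.05 to 1.13 with BCT. A single small RNA gene, MIR6087, held 43.5% to 55.3% of summed FPKM with DMSO and 31.7% to 32.5% with BCT. The sums themselves ran from 1169649 to 1572321 with DMSO and from 757534 to 799838 with BCT. They thus differed between the groups and also among the DMSO samples. The 9 luminal prostate markers were all measured, and 2 were called lower and 2 higher, where 17.8% and 13.9% of all genes tested were. Their median log2 fold change was -0.29. Their summed FPKM was 1142 to 1159 with DMSO and 2072 to 2207 with BCT, of which the keratins KRT8 and KRT18 held 601 to 616 and 1618 to 1828, and the other 7 markers 526 to 558 and 379 to 454. Of 13 basal, stromal, endothelial and immune markers, 11 were too low to test, none of them above 1.06 FPKM in any sample, CDH5 and CD3E were at 0 in every DMSO sample, and the sum of the list was 4.68 to 5.94 with DMSO and 12.1 to 15.7 with BCT. The 2 that were tested, COL1A1 and CD68, were both called higher (13.9% of all genes were), and without them and LUM the sum was 0.128 to 0.355 with DMSO and 0.475 to 0.683 with BCT. The part of these markers in the results below was not tested.

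Fold changes are on the scale log2(FPKM + 0.1). A gene was called where limma with Benjamini-Hochberg adjustment over the 12729 genes averaging 1 FPKM or more gave an FDR under 0.05 and the absolute log2 fold change passed 0.85, and the words rose and fell mark genes that passed the FDR alone. All 10 ID and SMAD genes were above 1 FPKM in every sample of both groups and were tested. SMAD6 and SMAD7 were called lower with BCT, 2 of 10 genes, where 17.8% of all genes tested were called lower. None of the 10 was called higher, where 13.9% of all genes were, and 5 of them rose on the FDR alone. At the FDR alone 9 of the 10 passed (SMAD2 missed it in several alternatives), 4 lower and 5 higher, against 82.1% of all genes, 42.8% lower and 39.3% higher, and in 9 of the 10 the DMSO and BCT samples did not overlap, against 85.3% of all genes. These shares are near the background. The median log2 fold change was 0.099 over the 10 genes and -0.037 over all genes tested. Of all calls 56.2% were lower, and this split became 10.3% after rescaling to equal FPKM sums and 25.9% after the same without MIR6087. The median log2 fold change over all genes was 0.73 and 0.35 under these scalings. Signs and calls of single genes under them include this common shift.

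**Figure D1:**
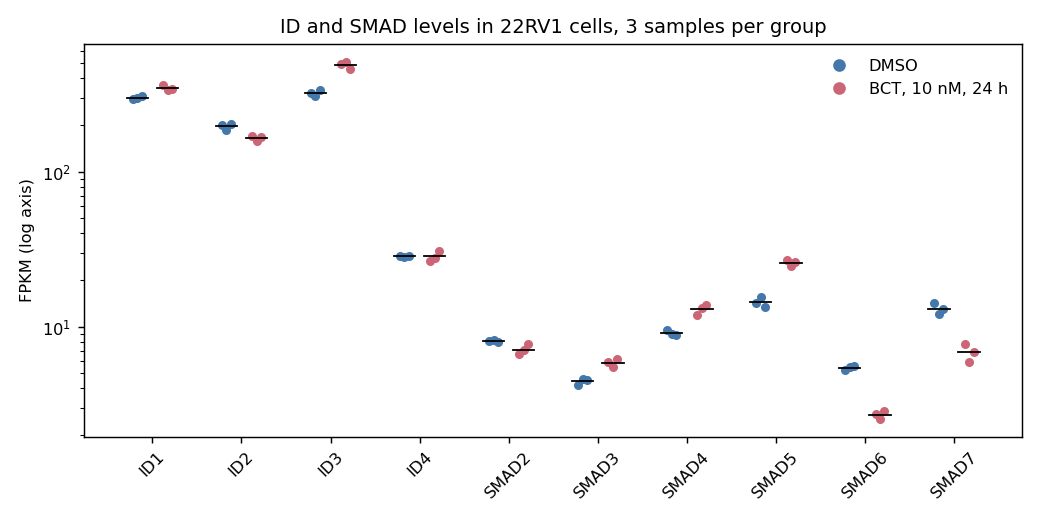
FPKM (log axis) of the 10 genes in the 3 DMSO samples (blue) and the 3 BCT samples (red), with a line at each mean. ID1, ID2 and ID3 sit at 159 FPKM or more in every sample and the SMADs below 30, and the groups overlap only at ID4.

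ID transcripts were among the more abundant in these cells. With DMSO, ID3 led at 321 ± 13.2 FPKM (SD, n = 3), followed by ID1 at 301 ± 6.95 (SD, n = 3) and ID2 at 196 ± 8.87 (SD, n = 3). Their levels were above those of 97.8%, 97.6% and 96.3% of the genes tested, respectively. ID4 was far lower at 28.4 ± 0.165 FPKM (SD, n = 3), above 73.4% of genes. This order held with BCT, in which no neighbors within the ID family overlapped.

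ID3, an ID protein often induced together with ID1 by BMPs, had the largest change of the family. It read 320, 308 and 335 FPKM in the DMSO samples and 498, 512 and 459 FPKM in the BCT samples. Every BCT sample lay above every DMSO sample, and ID3 rose 1.53-fold to 489 ± 27.3 FPKM (SD, n = 3). The log2 fold change was 0.61 (SE 0.059, limma with Benjamini-Hochberg adjusted p = 2.0e-05), below the fold change needed for a call. It was past it after quantile normalization (1.07), at equal sums without MIR6087 (0.995) and at equal sums (1.38). The median of all genes was 0.35 at equal sums without MIR6087 and 0.73 at equal sums. Relative to that median, ID3 was at 0.65 as deposited and under both equal-sum scalings.

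ID1, a target gene of BMP receptors in many cell types, read 294, 301 and 308 FPKM with DMSO and 361, 338 and 341 FPKM with BCT. The groups did not overlap, but the step between them was small. ID1 rose by 0.20 on the log2 scale (SE 0.049, 95% interval 0.091 to 0.31, limma with Benjamini-Hochberg adjusted p = 4.4e-03). ID2 went the other way as deposited, with 201, 186 and 202 FPKM with DMSO and 170, 159 and 166 FPKM with BCT. Its log2 fold change was -0.25 (SE 0.053, limma with Benjamini-Hochberg adjusted p = 2.4e-03), but was above 0 under 3 of the 6 scalings of the values (0.52 at equal sums, 0.14 at equal sums without MIR6087 and 0.064 after quantile normalization). The median of all genes under these 3 was 0.73, 0.35 and 0.029. Quantile normalization raised the log2 fold changes of ID1 (to 0.55) and ID3 (to 1.07) as well as that of ID2. The median of all genes therefore does not measure its shift at the levels of these genes. Part of the ID2 transcript (6.55% of its exon bases) is overlapped by ID2-AS1 on the other strand, and the library kit does not mark strand.

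ID4, which acts in part against the other ID proteins in some cell types had overlapping groups. It read 28.5, 28.2 and 28.5 FPKM with DMSO and 26.5, 27.8 and 30.8 FPKM with BCT. The log2 fold change was -0.0057 with a 95% interval of -0.15 to 0.14 (limma with Benjamini-Hochberg adjusted p = 0.93), and its sign turned under 4 of the 6 scalings. At equal sums it was 0.76 and at equal sums without MIR6087 0.38 (limma with Benjamini-Hochberg adjusted p = 6.6e-06 and 0.0015). The median of all genes was 0.73 and 0.35 there, so ID4 stayed close to the median.

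Added up, the 4 ID genes gave 843, 823 and 873 FPKM with DMSO and 1055, 1036 and 997 FPKM with BCT. Groups were apart, and the mean log2 difference was 0.28 as deposited (exact permutation test, two-sided, p = 0.1, the smallest p that 3 samples against 3 allow). It was 0.67 after quantile normalization, 0.67 at equal sums without MIR6087 and 1.05 at equal sums. The median of all genes was 0.35 at equal sums without MIR6087 and 0.73 at equal sums. Within the sum, a measure that a common scaling factor cannot move, ID3 held 37.9 ± 0.447% (SD, n = 3) with DMSO and 47.6 ± 1.70% (SD, n = 3) with BCT. The share of ID2 was 23.2 ± 0.605% (SD, n = 3) with DMSO and 16.0 ± 0.684% (SD, n = 3) with BCT. ID1 held 35.5% and 33.6%, and ID4 3.36% and 2.76%. ID3 thus held a larger share with BCT and ID2 a smaller one. Shares of 1 sum are tied to each other, so a larger ID3 share lowers the others whatever their own levels do. The shares were computed after the values were seen and are given without a test.

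**Figure D2:**
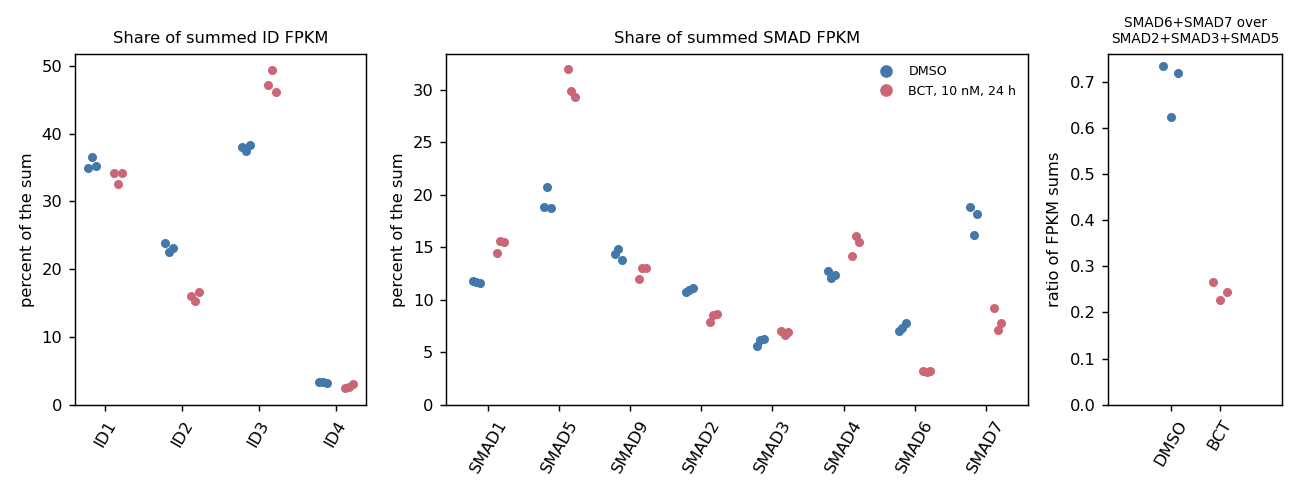
Percent of the summed ID FPKM (left) and of the summed FPKM of 8 SMADs (middle) held by each gene, and the ratio of SMAD6 plus SMAD7 to SMAD2 plus SMAD3 plus SMAD5 (right), 1 point per sample, DMSO blue and BCT red. ID3 and SMAD5 hold larger shares in every BCT sample, ID2, SMAD6 and SMAD7 smaller ones, and the ratio is 0.622 to 0.735 with DMSO and 0.228 to 0.265 with BCT.

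Among the SMADs, SMAD5 of the BMP branch changed most in the upper direction. It read 14.1, 15.5 and 13.5 FPKM with DMSO and 26.9, 24.6 and 26.0 FPKM with BCT. All BCT samples were far above all DMSO samples, and SMAD5 rose 1.80-fold, from 14.4 ± 1.02 to 25.8 ± 1.16 FPKM (SD, n = 3). At a log2 fold change of 0.84 (SE 0.066, limma with Benjamini-Hochberg adjusted p = 6.4e-06) it stayed just short of the call. Without DMSO replicate 2 the value was 0.90 and without BCT replicate 2 it was 0.88, both past the fold change threshold, as were 0.853 with median ratio factors, 1.23 at equal sums without MIR6087 and 1.61 at equal sums. The median of all genes was 0.35 at equal sums without MIR6087 and 0.73 at equal sums. SMAD5-AS1 overlaps 6.75% of the SMAD5 exon bases on the other strand.

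The other BMP SMADs, outside the 10 genes, moved unevenly. SMAD1 read 8.81, 8.71 and 8.33 FPKM with DMSO and 12.2, 12.8 and 13.8 FPKM with BCT, and rose by 0.58 on the log2 scale (SE 0.063, limma with Benjamini-Hochberg adjusted p = 3.9e-05). SMAD9 read 10.7, 11.1 and 9.86 FPKM with DMSO and 10.0, 10.7 and 11.5 FPKM with BCT. Its groups overlapped, and the 95% interval of its log2 fold change was -0.14 to 0.19. At equal sums SMAD9 was at 0.79 and SMAD1 at 1.34, and at equal sums without MIR6087 they were at 0.41 and 0.96. The median of all genes was 0.73 and 0.35 under these scalings.

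SMAD2 and SMAD3, the SMADs of TGF-beta and activin, had opposite signs as deposited. SMAD3 read 4.23, 4.57 and 4.50 FPKM with DMSO and 5.89, 5.48 and 6.16 FPKM with BCT, and rose by 0.39 on the log2 scale (SE 0.072, limma with Benjamini-Hochberg adjusted p = 0.001). SMAD2 read 8.02, 8.14 and 7.98 FPKM with DMSO and 6.62, 7.02 and 7.69 FPKM with BCT. The SMAD2 groups were separate by a narrow margin, and its log2 fold change of -0.18 (SE 0.068, limma with Benjamini-Hochberg adjusted p = 0.038) turned to 0.58 at equal sums and to 0.20 at equal sums without MIR6087. Both values are below the medians of all genes under these scalings, 0.73 and 0.35. As deposited, SMAD2 passed the FDR narrowly, and with 1 sample left out it missed it in 5 of 6 fits, with adjusted p of 0.072 to 0.098 (limma with Benjamini-Hochberg adjustment), and passed only without BCT replicate 3 (0.014). SMAD3 was at 1.14 at equal sums. The sum of SMAD2 and SMAD3 was 12.5 ± 0.235 FPKM with DMSO and 12.9 ± 0.776 with BCT (SD, n = 3), a difference within the spread of the BCT samples (exact permutation test, two-sided, p = 0.4).

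SMAD4, the partner common to both branches, read 9.53, 8.98 and 8.83 FPKM with DMSO and 11.95, 13.2 and 13.7 FPKM with BCT. Groups were clearly apart, and SMAD4 rose by 0.50 on the log2 scale, with means of 9.11 ± 0.368 and 13.0 ± 0.909 FPKM (SD, n = 3; SE of the log2 value 0.068, limma with Benjamini-Hochberg adjusted p = 0.00015). At equal sums without MIR6087 it was at 0.88 and at equal sums at 1.26, past the threshold in both, with the median of all genes at 0.35 and 0.73. Of its transcript, 3.05% is shared as identical stretches of 100 bases with another annotated gene, ENSG00000267699, so a small part of its fragments could be assigned to either.

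SMAD6, the inhibitory SMAD that acts mainly on the BMP branch, read 5.26, 5.46 and 5.59 FPKM with DMSO and 2.71, 2.54 and 2.86 FPKM with BCT. Each BCT sample was far below each DMSO sample, and SMAD6 fell to 0.497 of its DMSO level, with means of 5.44 ± 0.169 and 2.70 ± 0.158 FPKM (SD, n = 3). The log2 fold change was -0.98 (SE 0.076, 95% interval -1.16 to -0.81, limma with Benjamini-Hochberg adjusted p = 6.0e-06). SMAD7, which acts on both branches, read 14.1, 12.1 and 13.0 FPKM with DMSO and 7.72, 5.90 and 6.89 FPKM with BCT. It fell to 0.523 of its DMSO level, with means of 13.1 ± 1.03 and 6.83 ± 0.912 FPKM (SD, n = 3) and a log2 fold change of -0.93 (SE 0.103, 95% interval -1.17 to -0.69, limma with Benjamini-Hochberg adjusted p = 4.4e-05). Both have the palindrome printed above, whose part in these values was not tested.

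Both inhibitory SMADs kept their direction under all 6 scalings, but not always their call. At equal sums their log2 fold changes were -0.23 for SMAD6 and -0.17 for SMAD7, and at equal sums without MIR6087 -0.61 and -0.55, with the median of all genes at 0.73 and 0.35 under these scalings. Relative to that median, SMAD6 lay between -0.98 and -0.94 and SMAD7 between -0.94 and -0.89 under all 6, which for every scaling but quantile normalization follows from its construction. Without BCT replicate 2, SMAD7 was at -0.83 and lost its call, and with a pseudocount of 1 SMAD6 was at -0.80 and SMAD7 at -0.849, neither called. In a test against the threshold itself neither passed (limma, Benjamini-Hochberg adjusted p = 0.25 and 0.80).

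**Figure D3:**
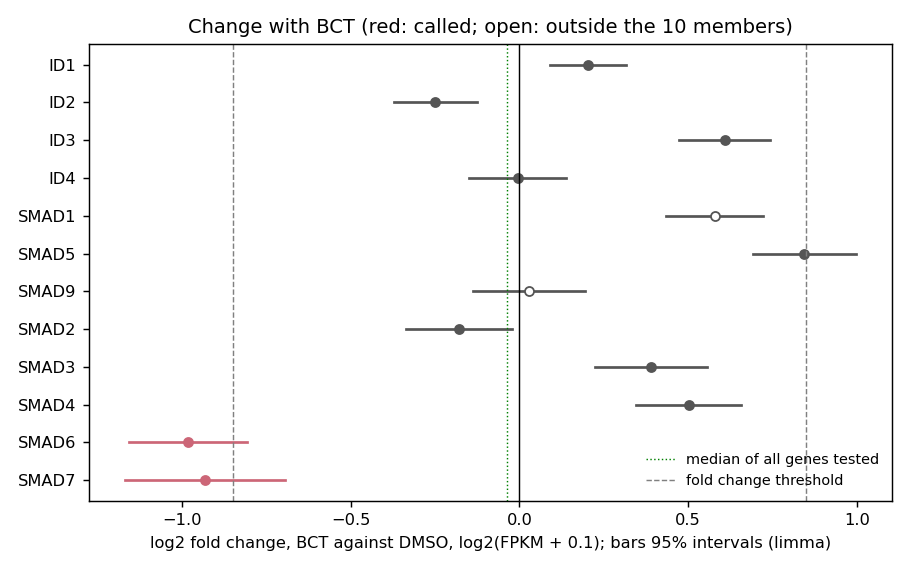
log2 fold change of each ID and SMAD gene, BCT against DMSO, as deposited, with 95% intervals from limma. SMAD6 and SMAD7 (red) are past the lower threshold of -0.85 while their intervals include it, SMAD5 sits at 0.84, and the dotted line is the median of all genes tested at -0.037; the signs of ID2, ID4 and SMAD2 turned under other scalings.

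With the families of SMADs set against each other, receptor-regulated SMADs of the list (SMAD2, SMAD3 and SMAD5) summed to 26.8 ± 1.19 FPKM with DMSO and 38.8 ± 1.48 with BCT (SD, n = 3). The mean log2 difference was 0.53, or 1.3 at equal sums and 0.92 at equal sums without MIR6087. The median of all genes was 0.73 and 0.35 under these scalings. Inhibitory SMADs summed to 19.4, 17.5 and 18.6 FPKM with DMSO and 10.4, 8.44 and 9.74 with BCT. The ratio of inhibitory to receptor-regulated SMADs was 0.735, 0.622 and 0.718 in the DMSO samples and 0.265, 0.228 and 0.245 in the BCT samples. The groups were far apart on this ratio, with a mean log2 difference of -1.49, which ranged from -1.57 to -1.44 when each sample was left out in turn. Each of the summed differences had an exact permutation p of 0.1 (two-sided, 3 measures, also 0.1 after Benjamini-Hochberg adjustment), the smallest that 3 samples against 3 allow. The ratio is the same under any scaling by a single factor per sample, and was -1.48 after quantile normalization.

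Of the summed FPKM of all 8 SMADs (73.6 ± 1.80 with DMSO and 84.95 ± 3.25 with BCT, SD, n = 3), SMAD5 held 19.5 ± 1.10% with DMSO and 30.4 ± 1.41% with BCT. SMAD7 held 17.8 ± 1.38% with DMSO and 8.04 ± 1.04% with BCT (SD, n = 3). The BMP SMADs (SMAD1, SMAD5 and SMAD9) were 2.69 ± 0.131 times as abundant as SMAD2 plus SMAD3 with DMSO and 3.83 ± 0.113 times with BCT. These groupings were made after the values were seen. Among the 6 SMADs of the list, with SMAD1 and SMAD9 left out, the order of levels differed between the groups. With DMSO it ran SMAD5, SMAD7, SMAD4, SMAD2, SMAD6 and SMAD3, in which SMAD5 and SMAD7 overlapped. With BCT it ran SMAD5, SMAD4, SMAD2, SMAD7, SMAD3 and SMAD6, in which SMAD7 overlapped both its neighbors, and SMAD5 overlapped ID4 above it.

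**Figure D4:**
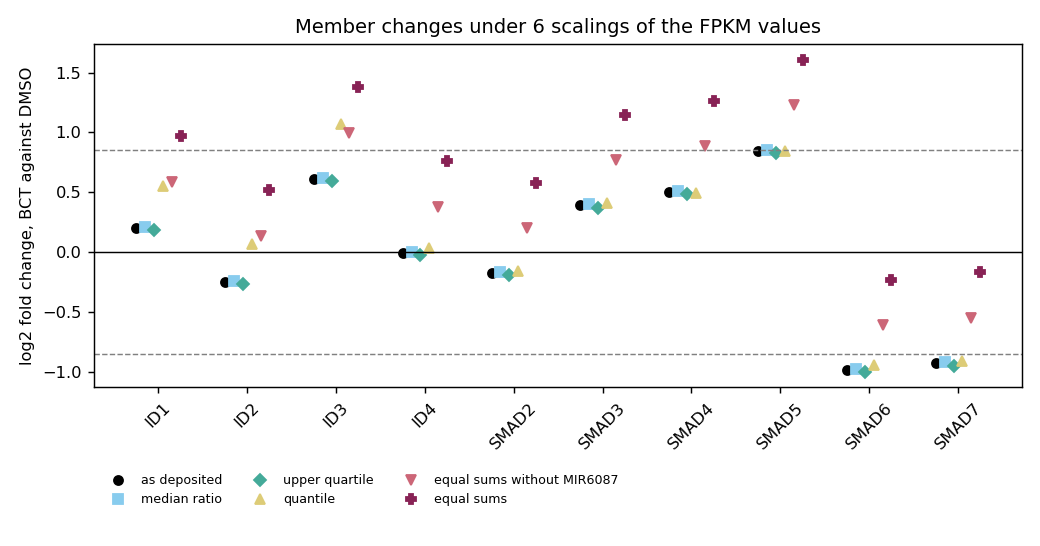
log2 fold change of each of the 10 genes under 6 scalings of the FPKM values, with dashed lines at the thresholds of 0.85 and -0.85. SMAD6 and SMAD7 are below 0 in all 6, SMAD3, SMAD4, SMAD5, ID1 and ID3 above 0 in all 6, and ID2, ID4 and SMAD2 change sign. The median of all genes is itself 0.73 at equal sums and 0.35 at equal sums without MIR6087.

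Partners and regulators were read from lists written with earlier results of these data known. Among 11 E proteins and other helix-loop-helix partners of ID proteins, 7 were tested, 1 was called lower and 2 higher, where 17.8% and 13.9% of all genes were. TCF3, the gene of the E proteins E12 and E47, fell, with means of 28.1 ± 0.270 FPKM with DMSO and 11.3 ± 1.83 with BCT (SD, n = 3) and a log2 value of -1.32. TCF12 and TCF4, named after their values were seen as the other E proteins, had log2 fold changes of 0.83 and -0.82 and were not called. HES1, a Notch target, rose, with 29.0 ± 2.27 FPKM with DMSO and 52.5 ± 2.36 with BCT (SD, n = 3), as did BHLHE41, a transcriptional repressor, from 1.68 to 4.48 FPKM. HES1 was past the fold change threshold by a small margin, at 0.86, and lost its call with upper quartile scaling (0.838), with a pseudocount of 1 (0.836) and without DMSO replicate 2 (0.79), BCT replicate 2 (0.838) or BCT replicate 3 (0.836). HES1 was also not called in a test against the threshold itself. At equal sums TCF3 was at -0.56, not called, with the median of all genes at 0.73. As deposited, the E proteins did not share a direction.

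None of the 5 tested type I receptors of 7 was called, where 17.8% of all genes were called lower and 13.9% higher. The most abundant, the activin receptor ACVR1B, had means of 13.7 FPKM with DMSO and 13.6 with BCT. Of the 5 type II receptors, 1 was called higher and 2 lower, where 13.9% and 17.8% of all genes were. Of the 2 with a mean of at least 1 FPKM in both groups, 0 were called, where 1503 of 11988 such genes were called higher and 1997 lower. TGFBR2, the receptor that binds TGF-beta, had 0.874 ± 0.0272 FPKM with DMSO and 5.25 ± 0.915 with BCT (SD, n = 3) at a log2 value of 2.44. The activin receptor ACVR2B was called lower (2.02 to 0.575 FPKM), as was AMHR2, the receptor of anti-Mullerian hormone (1.58 to 0.768 FPKM). TGFBR2 passed the filter on low values only through the BCT samples, and ACVR2B and AMHR2 only through the DMSO samples. AMHR2 lost its call without BCT replicate 2 (-0.81), with a pseudocount of 1 (-0.55), at equal sums (-0.27) and at equal sums without MIR6087 (-0.62). BAMBI, a pseudoreceptor that blocks signaling, was 1 of 2 tested of 6 in its list and rose, with 1.65 ± 0.107 FPKM with DMSO and 6.96 ± 1.22 with BCT (SD, n = 3). Of 11 extracellular antagonists, 4 were tested, with 1 called higher and 1 lower, where 13.9% and 17.8% of all genes were. FST, which binds activin, was called higher (0.687 to 3.37 FPKM, over the filter only through BCT), and TWSG1, a BMP-binding protein, was called lower (12.2 to 6.66 FPKM) at -0.87, just past the threshold. TWSG1 lost its call without DMSO replicate 1 (-0.83) or BCT replicate 2 (-0.77), with a pseudocount of 1 (-0.79), with quantile normalization (-0.845), at equal sums (-0.11) and at equal sums without MIR6087 (-0.48). In a test against the threshold itself neither TWSG1 nor AMHR2 was called. The median of all genes was 0.73 at equal sums and 0.35 at equal sums without MIR6087.

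Enzymes that tag or release SMADs were all measured. Of 12 ubiquitin ligases, phosphatases and deubiquitinases, 10 rose and 1 fell on the FDR alone, where 39.3% and 42.8% of all genes did, and 2 were called, both higher, where 13.9% of all genes were, with a median log2 fold change of 0.61 against -0.037 over all genes. RNF111, a ligase that degrades SMAD7 and SKIL, rose, with 7.04 ± 0.540 FPKM with DMSO and 20.1 ± 2.59 with BCT (SD, n = 3), as did ITCH, a ligase of the HECT class, from 12.7 to 26.7 FPKM. Of 15 nuclear cofactors and corepressors, 8 were tested and 3 called, all higher, where 13.9% of all genes were called higher. The 3 were the acetyltransferases CREBBP (7.36 to 23.2 FPKM) and EP300 (11.4 to 34.5 FPKM) and the corepressor SKIL (2.89 to 7.29 FPKM). Of 9 anchors and cytoplasmic inhibitors, 7 were tested and 2 called, both lower, where 17.8% of all genes were called lower. PMEPA1, which holds SMAD2 and SMAD3 away from receptors and is also known as an androgen-induced gene, fell, with 69.5 ± 4.99 FPKM with DMSO and 25.0 ± 6.52 with BCT (SD, n = 3). FKBP1A, which binds type I receptors and keeps them inactive, fell from 114 to 54.2 FPKM. At equal sums neither was called (PMEPA1 -0.73, FKBP1A -0.30, the latter with adjusted p = 0.074 by limma with Benjamini-Hochberg adjustment), and at equal sums without MIR6087 FKBP1A was at -0.68. The median of all genes was 0.73 and 0.35 under these scalings.

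Of 25 transcripts known to rise on TGF-beta or BMP signaling, other than the ID genes and SMADs themselves, 15 were tested, 10 were called higher and 2 lower, where 13.9% and 17.8% of all genes were. CDKN2B, among those higher, passed the filter only through the BCT samples. Of the 13 with a mean of at least 1 FPKM in both groups 9 were called higher and 2 lower. Of all 11988 such genes, 1503 were called higher and 1997 lower. The list's median log2 fold change was 1.20. KLF10, an early TGF-beta response gene, rose, with 12.4 ± 1.15 FPKM with DMSO and 74.7 ± 16.3 with BCT (SD, n = 3). TSC22D1 rose from 20.6 to 93.5 FPKM. CDKN1A, the cell cycle inhibitor p21, rose, with 49.3 ± 2.03 FPKM with DMSO and 181 ± 18.9 with BCT (SD, n = 3), as did COL1A1, a collagen that is also in the stromal marker list, from 1.43 to 5.83 FPKM. BAMBI and SKIL belong to this list as well. PMEPA1 and the apoptosis gene BMF (4.96 to 2.33 FPKM) were the pair called lower. The remaining 10 were too low to test, at no more than 1.09 FPKM in any sample. Many of these genes are also known to respond to other stimuli, and the list is not independent of earlier results. SMAD6 and SMAD7, textbook targets of the same complexes, were called in the opposite direction to these 10.

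**Figure D5:**
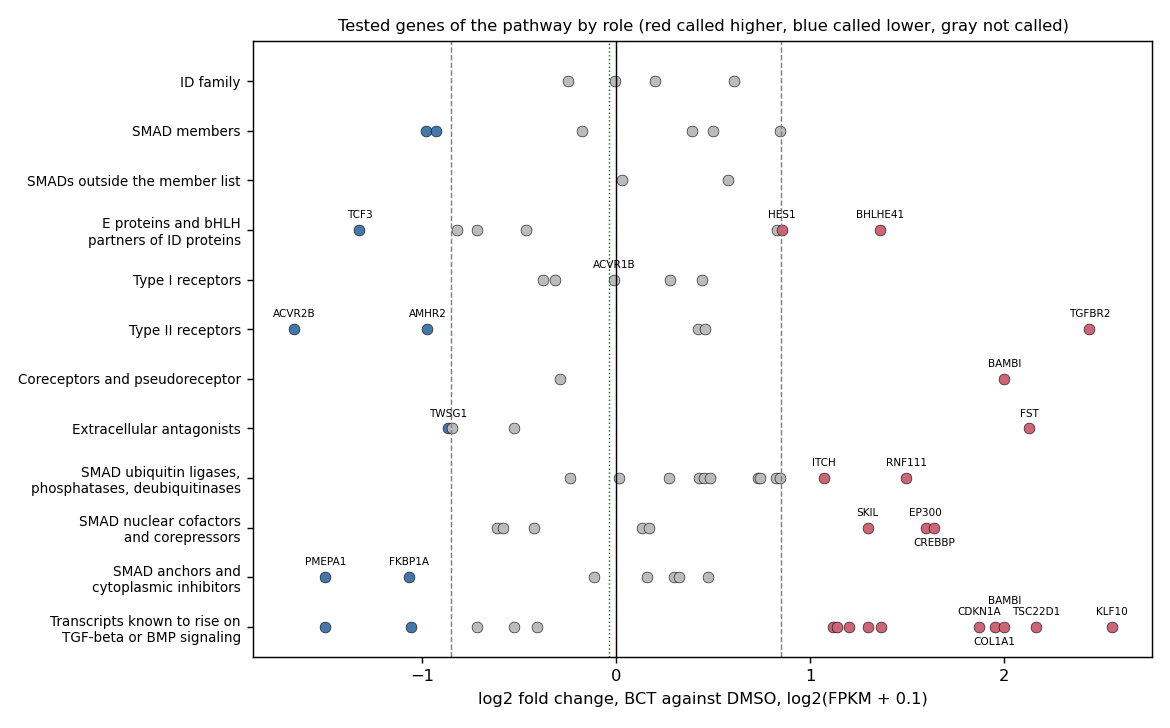
log2 fold change, BCT against DMSO, of the tested genes of each list, as deposited, with called genes in red (higher) or blue (lower), not called in gray, dashed thresholds of 0.85 and -0.85 and a dotted line at the median of all genes. Tested type I receptors lie within the thresholds. Of 15 tested transcripts known to rise on TGF-beta or BMP signaling, 10 are past the upper threshold. Of all genes tested, 13.9% were called higher and 17.8% lower. CDKN2B, among those 10, passed the filter only through the BCT samples. The lists were written with earlier results of these data known. Gray points near 0 can change sign under other scalings.

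Genes among the most like ID1 over the 6 samples, by Pearson correlation of log2(FPKM + 0.1), were FUT4 (r = 0.997) and MAST2 (0.992). Those most like SMAD7 were SLC18B1 (r = 0.999), GLUL (0.999) and PCBD2 (0.998). With 3 samples in each of 2 groups these values mostly carry the difference between the groups, and they are given as a description.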

How the data were processed

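Total RNA of 22RV1 cells (3 DMSO and 3 BCT samples) was made into libraries with a TruSeq kit that does not mark strand. Per the submitters' notes and the paper, the authors trimmed reads with Trimmomatic 0.38, aligned them to hg19 with HISAT2 and assembled them with StringTie. They deposited FPKM values for 26255 genes per sample. HTSeq is also named in the notes, without a role, and the gene annotation is not given in the sources used here. Read numbers are not in the files, so no count test, interval or floor was computed.

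From the deposited FPKM, log2(FPKM + 0.1) was fitted in R 4.3.3 by limma 3.58.1 with a trended eBayes step. The fit held the 12729 genes that averaged 1 FPKM or more, with Benjamini-Hochberg adjustment over all of them. Calls needed an FDR under 0.05 and an absolute log2 fold change over 0.85. The study names both an FDR of 0.05 and, in its methods, of 0.01, and the second was an alternative. Summed FPKM were compared by an exact permutation test over samples. Groups came from the sample labels. Genes named were the 10 ID and SMAD genes, SMAD1 and SMAD9, at most 5 called genes with the largest change in each pathway list (or, with none called, the most abundant), and the 3 genes most correlated with ID1 and with SMAD7. A gene that this rule covers is not reported here. TCF12, TCF4, BMF, CDKN2B and the markers named singly fall outside this rule and were named after their values were seen. The members and lists were chosen with earlier results of these data known. Palindromes and stretches of 100 bases shared between transcripts were searched in GRCh37 and GENCODE, and in RefSeq promoter windows. The steps were run on simulated data with a log2 change of 1.5 in 200 genes. Of these, 197 were recovered, and 1 of 12529 unchanged genes was called. A change of 1.5 is larger than any of the 10 genes had as deposited, so this run does not bear on calls near the threshold.

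The labels do not say whether replicate numbers pair the samples. Deviations of same-numbered samples correlated at 0.116, 0.033 and 0.034, a mean of 0.061 against -0.031 for other pairs. With values this low the numbers were not taken to pair the samples in the main fit. With a replicate block the SE of SMAD7 went from 0.103 to 0.067 and that of SMAD6 from 0.076 to 0.085. In all, 20 alternatives were run, among them other pseudocounts, filters and scalings, a test against the threshold, a replicate block and leaving out each sample.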

Additional observations from a re-analysis of the deposited data

How the results depend on the processing

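Of 199 values of the 10 genes under 20 alternatives, 167 had the same direction and call as reported, 9 lost and 12 gained a call and 11 changed sign. For the 23 other named genes these were 423, 22, 2 and 6 of 453. The cause was not tested unless given. Genes of the 10 called lower numbered 0 with a pseudocount of 1, 0 at equal FPKM sums, 0 at equal sums without MIR6087, 0 in a test against the threshold itself, 1 with a mean of at least 5 FPKM (SMAD6 is then not tested), and 1 to 2 with 1 sample left out. Those called higher numbered 5 at equal sums, 3 without MIR6087, 1 with median ratio factors (SMAD5), 1 with quantile normalization (ID3), and 0 to 1 with 1 sample left out. Of all genes, 657, 1192 and 1392 were called lower at equal sums, at equal sums without MIR6087 and against the threshold, and 5734, 3410 and 1033 higher. Without a filter 2657 were higher and with a mean of at least 5 FPKM 1150, since other numbers of genes were tested. At equal sums the signs of ID2 (0.52), ID4 (0.76), SMAD2 (0.58) and ACVR1B (0.75) reversed, and without MIR6087 those of the same genes (0.14, 0.38, 0.20 and 0.37). Over all genes the median was then 0.73 and 0.35. ID4 reversed with median ratio factors (0.0028) and, with ID2 (0.064), under quantile normalization (0.031). With 1 sample left out ID4 ran from -0.066 to 0.042, SMAD9 from -0.021 to 0.076 and ACVR1B from -0.042 to 0.012. With the replicate block the calls were 2266 lower and 1767 higher over all genes, and 2 and 0 among the 10. The adjusted p of SMAD2 was 0.058 with the block, which changed no call at the fold change threshold among the 10. FPKM hold no read numbers, so counting error cannot be set beside the spread between samples.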
